A study of Mus musculus with 10 samples.

Results

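Neuronal-type genes were examined in fibroblasts cultured from mouse embryos, which are cells of connective tissue. The set holds 8 genes, Nrep, L1cam, Stmn2, Ncam1, Dpysl3, Tubb3, Gap43 and Nes, out of 12393 genes that the platform annotation names by a probe set of their own. They were picked with earlier results in view, because Nrep and L1cam were higher and Stmn2 was lower in cells given wild-type G9a than in cells given an empty vector. Their levels in those groups are therefore a description and support nothing. All 8 genes were on the array, with 20 probe sets. Of these, 13 probe sets of 6 genes were bright enough to be tested. Tubb3 and Gap43 were not, and neither were 5 dim probe sets of L1cam, Ncam1 and Nes.

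Messenger RNA was measured on 10 Affymetrix arrays in 5 groups of 2. G9a, the product of Ehmt2, methylates histone H3 on lysine 9, a mark of silenced genes. Cells of 4 groups had been deleted for G9a and then received an empty vector (delta), wild-type G9a with a FLAG tag (WT), the same protein with the substitution K165A, or the form H1093K, which the labels describe as catalytically mutant. The arrays of the remaining group are titled only as deleted, and the sources used here do not give the vector of those cells, if any. Nothing says whether a group is 1 line or several, or whether its 2 arrays came from separate cultures, so a p-value here covers array-to-array spread alone, which may be technical. Signals are on the authors' linear scale, in arbitrary units, and levels of different probe sets are not comparable with each other.

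Each of these genes is known from nervous tissue. L1cam and Ncam1 encode adhesion proteins of the immunoglobulin superfamily that act between axons and other cells. Stmn2 and Tubb3 encode proteins of neuronal microtubules, Gap43 and Dpysl3 proteins of the growth cone, Nrep a small protein first described in neurons, and Nes an intermediate filament protein of neural progenitors. Outside the nervous system many neuronal genes are held silent by the repressor REST, whose corepressor complexes can include G9a. Several of these genes are also active in fibroblasts, muscle or wounded tissue.

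The arrays carried fibroblast signals and little of the defining markers of neurons. Of 14 fibroblast markers 10 were bright enough to be tested, and their summed signal lay between 53106 and 70036 on the 10 arrays. Of 20 neuron markers 19 were on the array and 4 passed the brightness filter (Eno2, Stx1a, Syn1 and Uchl1), while 6 had a mean signal under 16, the constant added before taking logarithms. The synaptic gene Snap25 read 1.11 to 10.3 and the neurofilament gene Nefl 1.14 to 12.9. The summed neuron markers lay between 1002 and 1355, with both WT arrays below all others and H1093K overlapping each of the other 3 groups. Ehmt2 itself had a mean signal (SD, n = 2 each) of 444 ± 41.0 for delta, 478 ± 23.8 for H1093K, 648 ± 39.4 for WT and 714 ± 14.5 for K165A. For the arrays labelled deleted it was 1714 ± 50.9, which goes against that label; whether the probes lie inside the deleted part is not known here. Those arrays also read the fibroblast genes Pdgfra at 1628 and 1743 and Dcn at 1357 and 1519, against at most 81.7 and 54.0 on any other array. Fibroblast markers did not all go this way. S100a4 had a mean of 1203 on those arrays, against 6461 for H1093K and 4937 for K165A. Of the 10 tested fibroblast markers 3 were higher and 2 lower on those arrays than in H1093K. The 4 of smallest p there were S100a4, Fbln1, Col3a1 and Thy1, and neither Pdgfra nor Dcn. Against K165A 2 were higher, Fbln1 and Col3a1, and 2 lower, so Pdgfra and Dcn do not enter that count. The part of these differences in the results on those arrays was not tested.

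**Figure D1:**
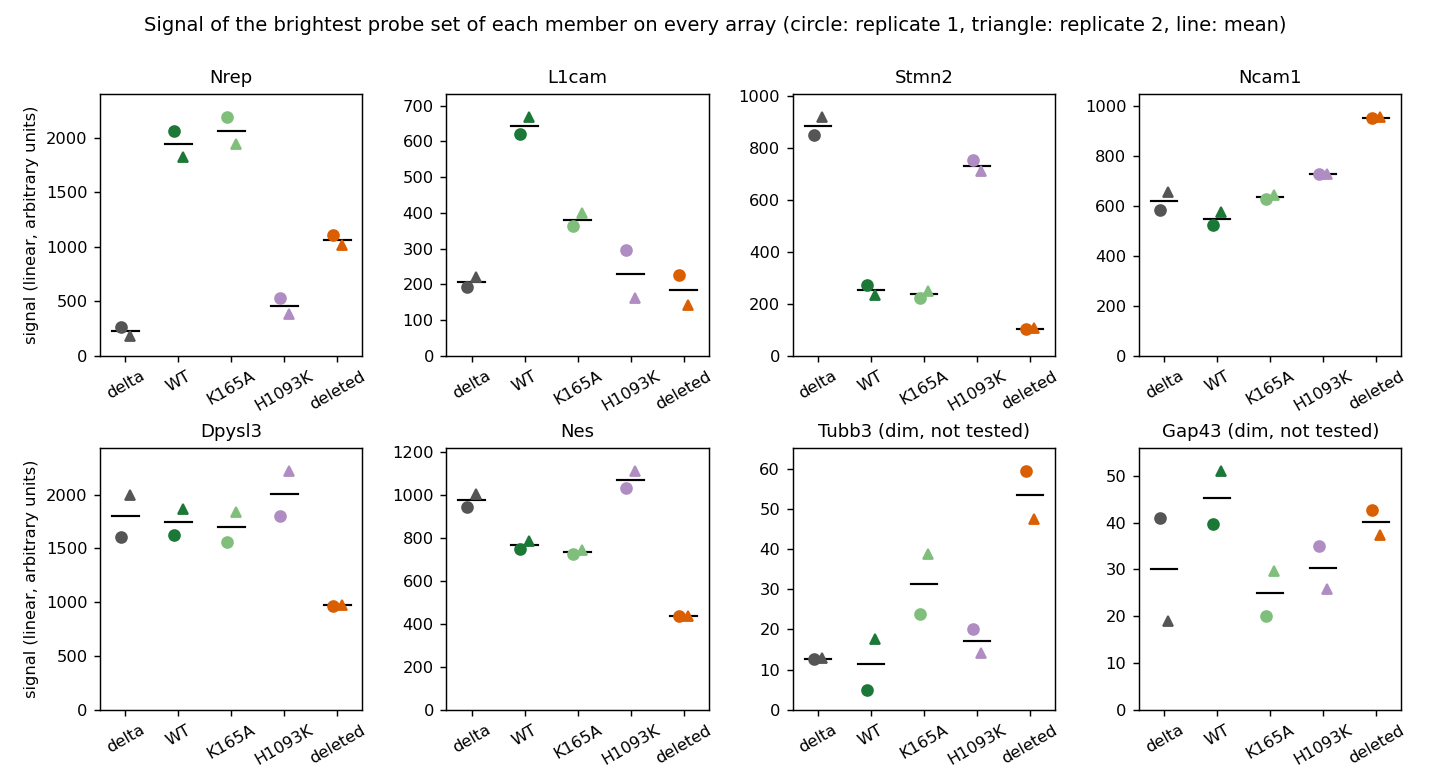
Signal of the brightest probe set of each of the 8 genes (vertical axes, linear, arbitrary units, each starting at 0) on both arrays of the 5 groups; points are arrays and lines are group means. Nrep is high in WT and K165A, Stmn2 is high in delta and H1093K, and in the arrays labelled deleted Dpysl3 and Nes lie below every other array while Ncam1 lies above.

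K165A, H1093K and the arrays labelled deleted were compared with each other. Nrep, L1cam and Stmn2 were picked on the WT and delta arrays and not on these. However, K165A against WT gave calls for 0% of all probe sets, and H1093K against delta for 0.818%. K165A against H1093K is thus close to the comparison of the choice, and calls of the picked genes there are no independent support. The WT and delta arrays still entered the brightness filter and the estimate of spread, which all groups share. The comparisons were tested with limma, with p-values adjusted by Benjamini-Hochberg over 13576 probe sets and called under 0.05. In K165A against H1093K, 3 of 6 genes passed, Nrep higher and Stmn2 and Nes lower in K165A, where 7.42% of all probe sets passed (3.53% higher and 3.89% lower). The share over all probe sets rested on the arrays used: the 1007 that passed became 542 to 571 without K165A replicate 1 or either H1093K array. With the replicate number as a block it was 1854. The 3 genes passed in each of these fits. With the arrays labelled deleted set against H1093K, 5 of 6 genes passed, 2 higher and 3 lower, beside 33.4% of all probe sets (16.3% higher and 17.1% lower). Against K165A all 6 passed, 1 higher and 5 lower, beside 31.6% (15% and 16.7%). The median log2 difference of the 6 genes was -0.21, -0.64 and -0.87 in these comparisons, and that of all probe sets was 0.00, -0.01 and -0.02. Fewer cells expressing a gene and less RNA per cell cannot be told apart in such bulk samples.

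**Figure D2:**
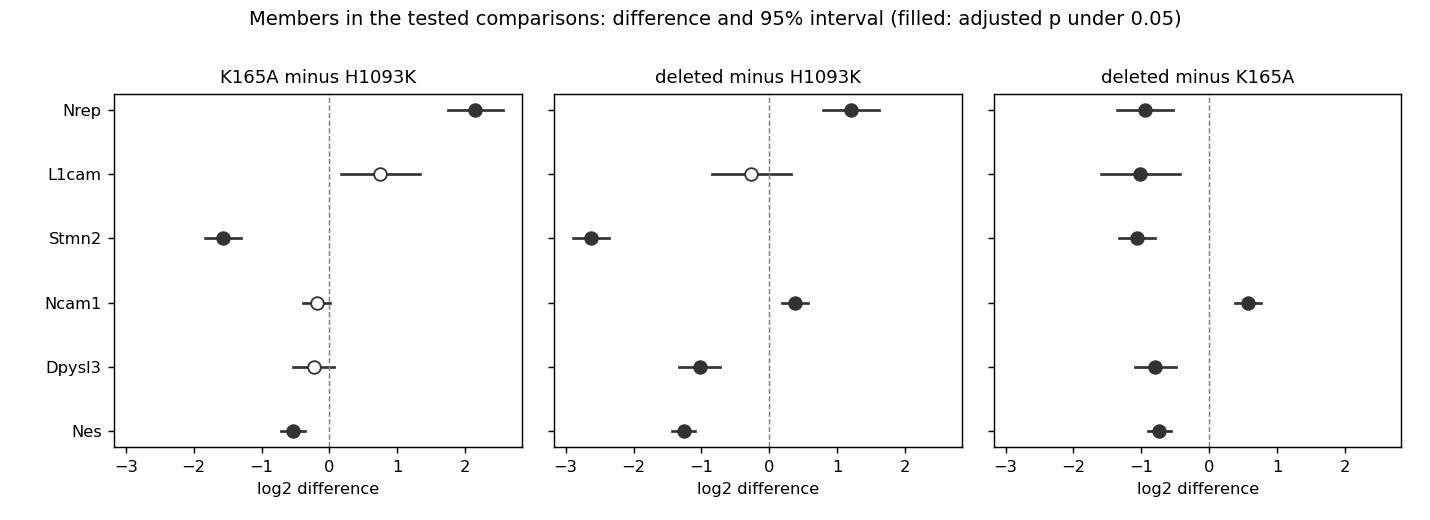
Log2 difference (horizontal axis, log2(signal + 16)) of the 6 tested genes in the 3 comparisons, with 95% intervals from limma; filled points passed an adjusted p of 0.05. Nrep, Stmn2 and Nes passed in all 3, and Ncam1 is the gene that passed only upward, in both comparisons with the arrays labelled deleted.

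Nrep differed widely between the groups, including the delta and WT arrays on which it was picked. Outside those arrays Stmn2 had the larger difference, -2.63 on the log2 scale (arrays labelled deleted minus H1093K). The largest for Nrep there was 2.15 (K165A minus H1093K). Nrep, also called P311, is a small protein linked to neurite outgrowth and to the behaviour of fibroblasts in wounds. Its brightest probe set, 1436736_x_at, read 266 and 181 for delta, 2059.5 and 1818 for WT, 2184 and 1942 for K165A, 532 and 381 for H1093K, and 1107 and 1017 for the arrays labelled deleted. WT and K165A overlapped at the top, the arrays labelled deleted lay in the middle, and H1093K and delta lay below them without overlapping each other. Nrep was 4.45-fold higher in K165A than in H1093K (log2 difference 2.15 ± 0.18 SE, limma adjusted p = 6.92e-05). The arrays labelled deleted had it 2.31-fold higher than in H1093K (1.21 ± 0.18 SE, limma adjusted p = 0.000713) and 1.93-fold lower than in K165A (-0.95 ± 0.18 SE, limma adjusted p = 0.0033). The suffix of that probe set marks probes that may also bind other transcripts. The second probe set, 1450839_at, carries no such mark and had the same order of groups, with means of 180.3 for delta, 1482 for WT, 1655 for K165A, 349 for H1093K and 901 for the arrays labelled deleted. It gave 4.57-fold for K165A over H1093K (limma adjusted p = 1.34e-06).

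As a description of the groups the gene was picked from, Nrep was 8.29-fold higher in WT than in delta, and by the same probe set 8.82-fold higher in K165A than in delta. In H1093K it was 1.98-fold above delta (log2 difference 0.99, 95% interval 0.58 to 1.39). The H1093K arrays did not overlap those of delta. K165A and WT differed by 0.09 (95% interval -0.32 to 0.50).

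Dpysl3, also called CRMP4, is a cytosolic phosphoprotein that binds actin and tubulin in growth cones. By probe set 1454613_at its signal was 1604 and 1995 for delta, 1621 and 1863 for WT, 1561 and 1838 for K165A, 1796 and 2214 for H1093K, and 969 and 975 for the arrays labelled deleted. The first 4 groups overlapped, and the arrays labelled deleted lay below all of them. There Dpysl3 was 2.03-fold lower than in H1093K (log2 difference -1.03 ± 0.14 SE, limma adjusted p = 0.000302) and 1.73-fold lower than in K165A (-0.79 ± 0.14 SE, limma adjusted p = 0.00164). K165A and H1093K differed by -0.23 (95% interval -0.54 to 0.07, limma adjusted p = 0.389), which did not pass. The other 2 probe sets, 1415877_at and 1438789_s_at, also passed in both comparisons with the arrays labelled deleted, by 1.92-fold to 3.07-fold. By 1415877_at the H1093K arrays, at 1540.1 and 1631, lay above every other array. The difference of K165A from H1093K there was -0.47 (limma adjusted p = 0.0822). Of the other 4 genes of this family (Crmp1, Dpysl2, Dpysl4 and Dpysl5), 0 passed the brightness filter. Dpysl5 read 92.5 and 71.8 for the arrays labelled deleted and at most 20.2 elsewhere.

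Gap43, a membrane-bound growth cone protein that is a classic mark of growing axons, was dim on every array. Its single probe set read 19.0 to 50.9 over the 10 arrays, and delta alone spanned 41.1 and 19.0. No group stood apart from the rest by this probe set.

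Stmn2, a neuronal stathmin that binds tubulin and promotes microtubule turnover, had nearly the reverse order of groups to Nrep, except in the arrays labelled deleted. By probe set 1423281_at it read 849 and 918 for delta, 753 and 713 for H1093K, 274 and 234 for WT, 223 and 252 for K165A, and 102 and 108 for the arrays labelled deleted. Delta and H1093K were high without overlapping, WT and K165A overlapped at a lower level, and the arrays labelled deleted were lowest. Stmn2 was 2.96-fold lower in K165A than in H1093K (log2 difference -1.57 ± 0.12 SE, limma adjusted p = 3.93e-05). The arrays labelled deleted had it 6.19-fold lower than in H1093K (-2.63 ± 0.12 SE, limma adjusted p = 2.3e-07) and 2.09-fold lower than in K165A (-1.06 ± 0.12 SE, limma adjusted p = 0.000117). Probe set 1423280_at passed in the same 3 comparisons with smaller differences, 1.98-fold, 3.01-fold and 1.52-fold. In the groups used for the choice, Stmn2 was 3.34-fold lower in WT than in delta, 3.56-fold lower in K165A than in delta, and in H1093K differed from delta by -0.26 (95% interval -0.53 to 0.00).

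The other stathmin bright enough to be tested, Stmn1, which is found in most dividing cells, had another order of groups. It read 7927 and 7299.8 for K165A, 5959 and 6003 for H1093K, and 5958 and 5946 for the arrays labelled deleted. Between the arrays labelled deleted and H1093K its log2 difference was -0.01 (limma adjusted p = 0.965), where Stmn2 differed 6.19-fold. K165A against H1093K gave 0.35 (limma adjusted p = 0.0729), 0.0371 with the replicate block, and 0.0324 and 0.0329 without either WT array. Its difference of the arrays labelled deleted from K165A, -0.35, passed (limma adjusted p = 0.0237) and did not without K165A replicate 1 or either deleted array (0.102 to 0.122). Stmn3 and Stmn4 were too dim to be tested.

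Tubb3, the beta-tubulin used as a marker of neurons, was near background in most groups. Its probe set read 12.6 and 12.9 for delta, 5.0 and 17.6 for WT, 23.9 and 38.9 for K165A, 20.2 and 14.2 for H1093K, and 59.4 and 47.6 for the arrays labelled deleted. The arrays labelled deleted lay above all others, at a level that was not part of the main test. When no probe set was left out for dimness, that difference from H1093K was 1.07 on the log2 scale (limma adjusted p = 0.0279), and the difference from K165A was 0.56 (limma adjusted p = 0.235). All 6 other beta-tubulins of the list were tested. In K165A against H1093K 0 of 6 passed with limma, where 7.42% of all probe sets passed. The smallest adjusted p-values were those of Tubb2a (0.0688) and Tubb6 (0.0855), and both passed with the replicate block (0.0143 and 0.0179). Tubb2a also passed without either delta array (0.0473 and 0.0475), and Tubb6 with quantile normalization (0.0426). Among the arrays labelled deleted 3 were lower than in H1093K and 2 lower than in K165A. Of all probe sets 33.4% and 31.6% passed in these comparisons, 17.1% and 16.7% lower. Tubb6 was lower in both, 1.70-fold and 1.36-fold (limma adjusted p = 0.000224 and 0.00618), and the second of these was lost without deleted replicate 1 (0.0601). The calls of Tubb4b in both comparisons and of Tubb2a against H1093K were lost without either deleted array (0.0565 to 0.154), among others. Without deleted replicate 1, Tubb6 against H1093K was the one of these 5 calls that still passed.

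**Figure D3:**
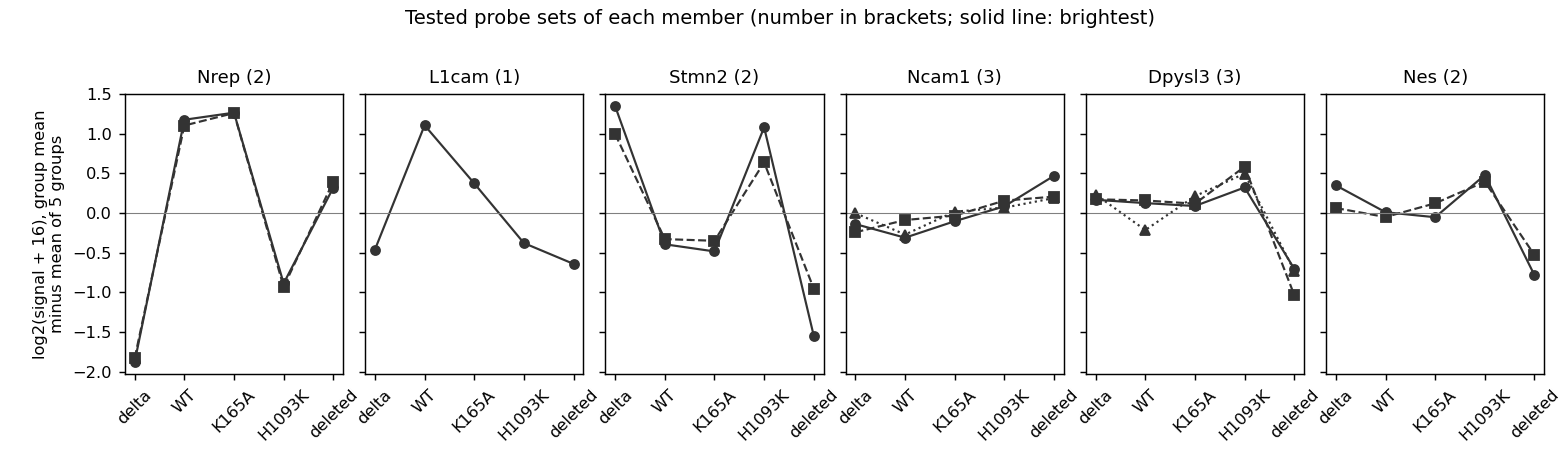
Group means of log2(signal + 16) less the mean of the 5 groups (vertical axis, 0 is the mean) for each of the 13 tested probe sets, by gene; the solid line is the brightest probe set. The 2 probe sets of Nrep nearly coincide, those of Stmn2 share their order of groups with different spans, those of Nes agree on the highest and the lowest group, and those of Ncam1 agree on the highest group and not on the lowest.

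L1cam is an adhesion molecule of growing axons that also occurs on some migrating cells outside the nervous system. RefSeq promoter entries were found for 3 of the 8 genes (L1cam, Nes and Tubb3). L1cam was the one tested member with both WT arrays above all others, and its WT level was part of the choice. The 250 bases before an annotated L1cam start are shown for that reason, as a description. They lie on the minus strand at chrX:73880791-73881040 (GRCm38.p6), with matches to the GC box (GGGCGG, either strand) in capitals.
L1cam: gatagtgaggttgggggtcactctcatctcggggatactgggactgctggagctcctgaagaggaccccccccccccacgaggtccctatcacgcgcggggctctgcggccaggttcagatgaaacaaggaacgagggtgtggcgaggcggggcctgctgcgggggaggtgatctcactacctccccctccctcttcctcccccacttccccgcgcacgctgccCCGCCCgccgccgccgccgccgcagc
This stretch had a G and C content of 69.6%, 20 CpG dinucleotides and 1 GC box. A second L1cam entry, which overlaps it, had 63.2%, 12 CpG and 1 GC box. The median over 32851 promoter entries of the same length was 52.4% and 6 CpG, and 32.7% of them held at least 1 GC box. A match is a description of the letters only.

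L1cam read 192 and 222 for delta, 619.8 and 667 for WT, 363 and 399 for K165A, 297 and 161 for H1093K, and 226 and 143 for the arrays labelled deleted, by probe set 1450435_at. WT lay above all other arrays, K165A lay between, and the other 3 groups overlapped. L1cam was 2.02-fold lower in the arrays labelled deleted than in K165A (log2 difference -1.02 ± 0.26 SE, limma adjusted p = 0.0144). Significance was lost without K165A replicate 2 (0.0705) or without deleted replicate 2 (0.110). K165A lay above H1093K by 0.75 (95% interval 0.17 to 1.33, limma adjusted p = 0.129), which did not pass. It rested on the H1093K arrays, at 1.17 without H1093K replicate 1 (limma adjusted p = 0.0252) and 0.34 without H1093K replicate 2 (0.539). Its difference between the arrays labelled deleted and H1093K was -0.26 (-0.84 to 0.32) and changed sign without H1093K replicate 1 or deleted replicate 2. In the groups used for the choice it was 2.96-fold higher in WT than in delta.

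The dimmer L1cam probe set, 1421958_at, had the same top of the order. It read 126 and 101 for WT and 63.0 and 80.4 for K165A, against 1.95 to 36.8 on the other 6 arrays. K165A did not overlap WT by either probe set. By 1450435_at K165A was 1.66-fold lower than WT (log2 difference -0.73, 95% interval -1.31 to -0.15, limma adjusted p = 0.9999), which did not pass. That comparison shares the WT arrays with the choice of the gene. Of L1cam's relatives on the array, Chl1 and Nrcam were too dim to be tested, as were Ncam2, Cntn1 and Cntn2.

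Ncam1, the neural cell adhesion molecule, was highest in the arrays labelled deleted by its brightest probe set. By probe set 1426864_a_at it read 586 and 655 for delta, 523 and 575 for WT, 627 and 644 for K165A, 726 and 727 for H1093K, and 953 and 954 for the arrays labelled deleted. The arrays labelled deleted lay above all others, and H1093K came next without overlap. There Ncam1 was 1.31-fold higher than in H1093K (log2 difference 0.38 ± 0.09 SE, limma adjusted p = 0.00708) and 1.49-fold higher than in K165A (0.57 ± 0.09 SE, limma adjusted p = 0.00078). As a description, since it shares the WT arrays, H1093K lay above WT by 0.40 (limma adjusted p = 0.0207). The other probe sets did not give these calls. By 1426865_a_at and 1450437_a_at, 0 of the 3 comparisons passed, with differences of 0.05 and 0.12 from H1093K in the arrays labelled deleted. With the gene taken as the mean of its 3 tested probe sets, that difference was 0.19 (limma adjusted p = 0.186).

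Nes encodes nestin, an intermediate filament protein of neural progenitors that is also found in other dividing cells. The 250 bases before its annotated start, at chr3:87970843-87971092 on the plus strand (GRCm38.p6), are shown because Nes passed in all 3 comparisons with the smallest standard error, with GC boxes in capitals.
Nes: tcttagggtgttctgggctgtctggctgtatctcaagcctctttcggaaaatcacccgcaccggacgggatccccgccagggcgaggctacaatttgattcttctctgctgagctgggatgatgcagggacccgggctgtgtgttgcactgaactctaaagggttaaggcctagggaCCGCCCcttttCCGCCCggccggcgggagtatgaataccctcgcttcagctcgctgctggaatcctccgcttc
It held 2 GC boxes and 15 CpG dinucleotides at a G and C content of 58.8%.

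By probe set 1449022_at Nes read 944 and 1005 for delta, 748 and 786 for WT, 723 and 744 for K165A, 1029 and 1108 for H1093K, and 436 and 434 for the arrays labelled deleted. H1093K and delta were high, WT and K165A lay lower, and the arrays labelled deleted were lowest, with no overlap between any of the groups. Nes was 1.45-fold lower in K165A than in H1093K (log2 difference -0.53 ± 0.08 SE, limma adjusted p = 0.00233). The arrays labelled deleted had it 2.40-fold lower than in H1093K (-1.26 ± 0.08 SE, limma adjusted p = 1.73e-06) and 1.66-fold lower than in K165A (-0.73 ± 0.08 SE, limma adjusted p = 8.67e-05). Probe set 1418289_at passed in the comparisons with the arrays labelled deleted and not in K165A against H1093K (-0.27, limma adjusted p = 0.324). Of 9 neural intermediate filament genes, Nes and Vim were bright enough to be tested. Vim, the vimentin of fibroblasts, read 13531 and 12025 for K165A, 9945 and 11108 for H1093K, and 7952 and 8871 for the arrays labelled deleted. Its difference between K165A and H1093K was 0.28 (limma adjusted p = 0.364), and -0.01 with quantile normalization. Vim was 1.52-fold lower in the arrays labelled deleted than in K165A (-0.60, limma adjusted p = 0.0144), a call lost without K165A replicate 1 (0.0841) or deleted replicate 1 (0.102). Against H1093K it did not pass (-0.32, limma adjusted p = 0.139), and passed with quantile normalization (9.66e-05) or only the arrays compared (0.0342).

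Between the groups from which the genes were picked and those that share their arrays, the counts were as follows and are given as a description. In WT against delta 4 of 6 genes passed, 2 higher and 2 lower, beside 11.9% of all probe sets (5.42% and 6.48%). In K165A against delta 3 of 6 passed, 1 higher and 2 lower (11.3% of all, 4.99% and 6.28%). In H1093K against delta 1 of 6 passed, Nrep, which was higher (0.818% of all, 0.449% higher and 0.368% lower). In H1093K against WT 5 of 6 passed, 3 higher and 2 lower (8.03% of all, 4.05% and 3.98%). In K165A against WT 0 of 6 passed with limma, and 0% of all probe sets. At an unadjusted limma p under 0.05 there were 2 of the 6 genes, L1cam and Ncam1, and 429 of all 13576 probe sets. The arrays labelled deleted gave 5 of 6 against delta, 2 higher and 3 lower (33% of all, 15.6% and 17.4%), and 6 of 6 against WT, 1 higher and 5 lower (32.4% of all, 15.4% and 16.9%).

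Other genes of neurite growth, from a list that includes Nrep, Stmn2 and Dpysl3, also went both ways. Of 18 growth cone membrane and cytoskeleton genes 13 were tested. In K165A against H1093K 3 were higher (Nrep among them), 2 lower (Stmn2 among them) and 8 did not pass, with a list median of 0.15. Of all probe sets 7.42% passed there. Marcksl1, a relative of Marcks, did not pass (0.79, limma adjusted p = 0.0783) and passed with the replicate block (8.2e-05). Besides the members, the microtubule-linked kinase Dclk1 was 2.62-fold higher (limma adjusted p = 0.000116). Marcks, a membrane substrate of protein kinase C, was 1.72-fold higher (limma adjusted p = 0.00145). The microtubule protein Map1b was 1.56-fold lower (limma adjusted p = 0.0378), a call lost without any 1 of 3 arrays (up to 0.227, without K165A replicate 1), and also with no filter (0.0606) or no intensity trend (0.0636). With the replicate block it passed.

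Dclk1 read 176 and 155 for delta, 423 and 492 for WT, 381 and 388 for K165A, 137 and 137 for H1093K, and 248 and 231 for the arrays labelled deleted. WT and K165A were high, delta and H1093K low, and the arrays labelled deleted in the middle. For the arrays labelled deleted against H1093K 5 of the 13 genes were higher and 4 lower, beside 33.4% of all probe sets. Basp1, a growth cone relative of Gap43, was 1.79-fold lower (limma adjusted p = 0.000273). Against K165A 2 were higher (Enah and Marcks) and 7 lower, beside 31.6% of all probe sets. The Marcks difference there, 0.32, lost its call in 7 of the 10 fits without 1 array, and with median centring (0.134), no filter, no intensity trend or only the arrays compared (0.0725 to 0.0782). Marcksl1, one of the 5 higher than H1093K, was lost without H1093K replicate 1 (0.0618) or deleted replicate 2 (0.0595).

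**Figure D4:**
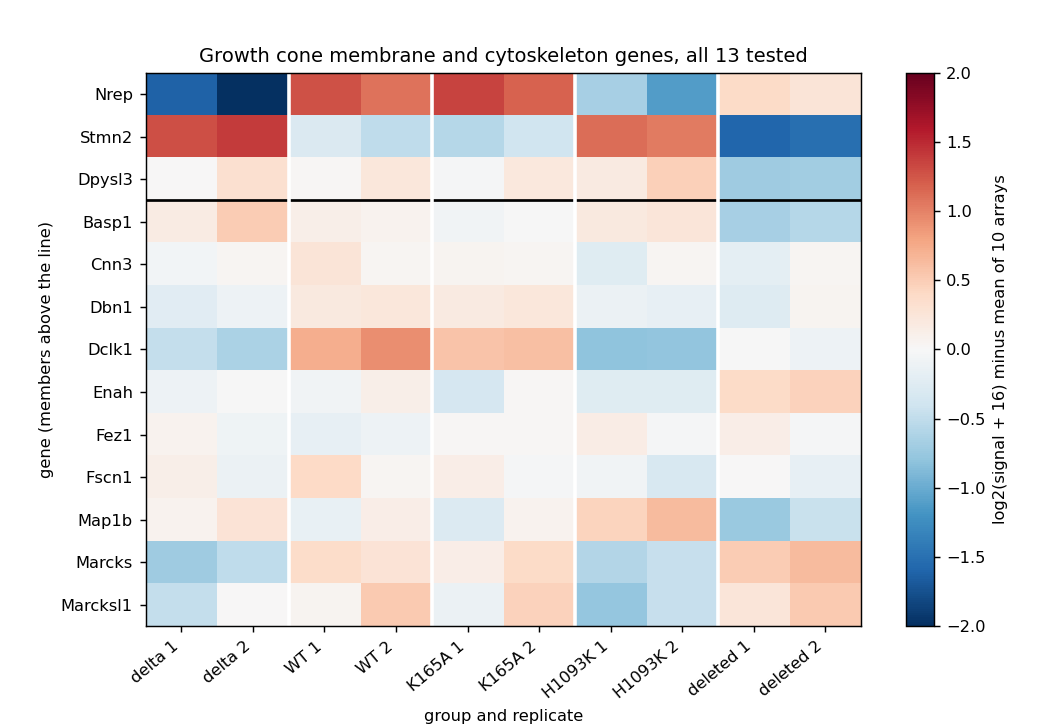
Heat map of the 13 tested growth cone membrane and cytoskeleton genes (rows; members above the line) on the 10 arrays (columns, by group and replicate); colour is log2(signal + 16) less the gene's mean over the arrays, from blue (2 or more below) to red (2 or more above). Nrep, Dclk1 and Marcks are bluest in delta and H1093K, where Stmn2 is reddest.

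Among 23 axon guidance genes on the array 17 were tested. In K165A against H1093K 2 were higher, 1 lower and 14 did not pass, where 7.42% of all probe sets passed. Nrp2, a receptor for class 3 semaphorins, was 2.13-fold higher (limma adjusted p = 0.00145), and the repellent ligand Sema3a was 1.51-fold lower (limma adjusted p = 0.00424). Unc5c, a netrin receptor, was 1.74-fold higher (limma adjusted p = 0.00712), which no longer passed without K165A replicate 1 or H1093K replicate 2 (up to 0.0633). In the arrays labelled deleted 6 were higher and 5 lower than in H1093K, and 5 higher and 7 lower than in K165A. Of all probe sets 33.4% and 31.6% passed in these comparisons. Nrp1 was 2.60-fold lower in the arrays labelled deleted than in H1093K (limma adjusted p = 4.88e-07), and Sema3c was 3.35-fold higher (limma adjusted p = 1.88e-05).

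The marker lists gave few tested genes. Their counts stand beside 7.42% of all probe sets in K165A against H1093K, and 33.4% in the arrays labelled deleted against H1093K. Of the 4 tested neuron markers 0 passed in K165A against H1093K with limma; Syn1, a synaptic vesicle protein, read 107 and 118 for K165A and 236 and 159 for H1093K (limma adjusted p = 0.09) and passed with the replicate block (0.0292). Among the arrays labelled deleted 2 neuron markers (Eno2 and Uchl1) were higher and 1 (Syn1) lower than in H1093K. Without H1093K replicate 1 the calls of Uchl1 (0.0576) and Syn1 (0.0526) were lost, and that of Uchl1 also without deleted replicate 2 (0.0930). Of 13 neural progenitor genes Nes alone was tested, although the progenitor genes Sox2 and Msi1, below the filter on the mean, read 116 and 100.3, and 430.2 and 423, in the arrays labelled deleted, against at most 17.3 and 77.9 elsewhere. Of 5 tested glial markers 1 was lower in K165A than in H1093K, and 2 were higher and 2 lower in the arrays labelled deleted than in H1093K. Of 10 fibroblast markers 3 were higher and 2 lower in K165A than in H1093K, and again in the arrays labelled deleted than in H1093K. Of 12 tested genes of REST and its partners, Ehmt2 alone passed in K165A against H1093K, 1.48-fold higher. Ehmt2 is the gene of the G9a given to these cells, and H1093K differed from delta in it by 0.10 (limma adjusted p = 0.737). The part of the Ehmt2 levels in the results on K165A and H1093K was not tested. Rest itself read 889 and 1224 for K165A and 985 and 1094 for H1093K.

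Genes whose signals followed those of the 3 genes that led the choice most closely over the 10 arrays were found by Pearson's r on the log2 scale, among about 1316 probe sets whose group means spanned at least 1 log2 unit. The arrays are 5 pairs, so these values describe the group pattern and carry no test. Nrep was followed by Angpt1 (r = 0.986), Lmo7 (0.985) and Nrp2 (0.979). L1cam was followed less closely, by Pank1 (0.919), Plppr4 (0.903) and Socs3 (0.902). For Stmn2 they were Krt7 (0.996), Selp (0.994) and Msln (0.994). Krt7, a keratin of simple epithelia, read 2660 and 2557 for delta, 367 and 309.6 for WT, 386 and 358 for K165A, 1804 and 1742 for H1093K, and 83.1 and 113 for the arrays labelled deleted.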

How the data were processed

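Signal intensities of 22690 probe sets on 10 arrays were used as deposited. The authors made these intensities with GCOS 1.4, per the submitters' processing notes; background and scaling options are not given in the sources used here. The trimmed mean (2% cut at each end) was 500.1 to 500.2 on every array, so no scaling was added. Control probe sets (64) were left out, as were those below the 40th percentile of mean log2(signal + 16). On the remaining 13576, limma 3.58.1 in R 4.3.3 (lmFit, eBayes with a trend) was fitted to all arrays, 1 mean per group, with 5 residual degrees of freedom. Adjustment was Benjamini-Hochberg. A gene was taken by its brightest probe set. An exact permutation test of 2 arrays against 2 cannot go below p = 0.333 and was not used. Fold changes on this scale understate those of dim probe sets.

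Symbols came from the platform annotation. The 8 genes, the other lists and the rule for named genes (members, up to 4 genes of smallest p per list, close relatives, and the 3 genes most like Nrep, L1cam and Stmn2) were chosen with earlier results of these data known. Nrep, L1cam and Stmn2 were picked on WT against delta.

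Same-numbered arrays deviated together: the correlation of within-group deviations was 0.23 to 0.53 for all 10 pairs of groups, and the design text speaks of separate analyses. On simulated K165A against H1093K data (13576 probe sets), 82.3% of 2-fold and 96.3% of 4-fold changes were recovered. In these runs 12 and 8 unchanged probe sets were also called. The simulated noise was independent between arrays, without such shared deviations, so these shares need not hold for the real arrays. The number of arrays limits the precision.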

Additional observations from a re-analysis of the deposited data

How the results depend on the processing

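The 3, 5 and 6 genes that passed in K165A against H1093K, and in the arrays labelled deleted against H1093K and against K165A, were recounted with pseudocounts of 1 and 64, no filter and the 60th percentile, median centring, quantile normalization, only the arrays compared, the replicate block, no intensity trend, genes as the mean of their probe sets, and each array left out. The counts stayed within 3 to 4, 5 and 5 to 6 when arrays were left out, and the block changed no member's call. Of 363 recomputed differences of the 6 genes, 357 kept direction and side of the threshold. Exceptions were L1cam in all 3 comparisons, with arrays left out, and Ncam1 in the arrays labelled deleted against H1093K. Ncam1 lost that call with genes as the mean of their probe sets (limma adjusted p = 0.186). Both are given above, and the cause was not tested. Over all probe sets, K165A against H1093K gave 1007, but 663 with only the arrays compared (fewer samples), 1854 with the replicate block, and 542 to 948 with 1 array left out. Leaving out both deleted arrays, an alternative chosen after seeing the data, kept the 3 calls. Map1b, Marcks, Marcksl1, the beta-tubulins, Stmn1, Vim, Uchl1 and Syn1 changed calls as given above. Probe sets below the filter were described by their array values, and signals near 16 or lower limit any order among them.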
